A study of Mus musculus with 6 samples.

Results

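The genes described here are those of the constitutive proteasome, the enzyme complex that degrades ubiquitin-tagged proteins in every cell. They were chosen by name, as the protein-coding genes whose symbol starts with Psma to Psmg and a number, and Psmb8, Psmb9 and Psmb10, which encode the immunoproteasome, were left out. This gave 47 genes of the 55487 in the table, and 46 of them had enough counts to be tested. RNA was sequenced from LSKs (bone marrow cells that lack lineage markers and carry Sca-1 and c-Kit, a fraction rich in hematopoietic stem and progenitor cells) of Tespa1+/+ and Tespa1-/- mice. There were 3 libraries per genotype. All libraries came from irradiated mice, so no unirradiated control stands beside them. By the methods of the study, mice were male, 8 to 10 weeks old and on the C57BL/6 background, received 5 Gy and were sampled at day 13. The Tespa1-/- mice carry the Tespa1tm1Smoc allele in all tissues, and the labels call the Tespa1+/+ mice littermates, while the methods of the study state only that normal C57BL/6 mice came from an outside institute. The deleted exons, and whether a library was made from 1 mouse or a pool, were not given in the sources used here, so the p-values measure only the spread between these libraries.

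The proteasome is built from a barrel, the 20S core, and a cap, the 19S regulatory particle. The outer rings of the core hold the alpha subunits, which gate the entrance, and the inner rings hold the beta subunits, of which Psmb5, Psmb6 and Psmb7 carry the proteolytic sites. The cap consists of a base, in which a ring of ATPases unfolds the substrate, and a lid, which removes the ubiquitin chain. Dedicated chaperones help to assemble both parts, and other activators can take the place of the 19S cap. Stem cells depend on protein degradation for the turnover of cell cycle and signaling proteins, and the transcription factor NRF1, encoded by Nfe2l1, is known to raise transcription of proteasome genes when proteasome activity falls.

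Total counts ranged from 12856630 to 30576981 per library. Tespa1 itself was at 34.4 ± 1.62 CPM (normalised read count per library total, scaled with TMM factors; mean ± SD, n = 3 in each case) in Tespa1+/+ LSKs and 14.6 ± 0.634 CPM in their Tespa1-/- counterparts, so transcripts of the gene were reduced but not absent. Other features of the libraries moved with the genotype. The summed level of 12 neutrophil markers was 22.1 to 24.6 CPM in Tespa1+/+ and 506 to 537 CPM in Tespa1-/- libraries, and the 11 that could be tested were all higher. Ly6g, a defining neutrophil marker, was at 0 in every Tespa1+/+ library and at 0.428 ± 0.115 CPM (SD, n = 3) in Tespa1-/- libraries. Of 7 erythroid markers, 5 could be tested and all 5 were higher (summed level of the 7 genes 17.1 to 18.5 CPM against 43.9 to 47.8 CPM). Of 8 genes whose products are used to gate LSKs and to divide them into stem and progenitor cells, 7 were lower (summed level 1231 to 1273 CPM against 715 to 735 CPM), and Ly6a, the gene of Sca-1, passed as lower only after a correction for gene length that is described further on. This list includes Cd34, Flt3 and Cd48, whose products mark progenitors rather than the most primitive stem cells. Of 7 B and plasma cell markers tested, 3 were higher and 3 lower, where 31.5% of all genes were higher and 31.8% lower (summed level of the 8 genes listed 423 to 452 CPM against 492 to 517 CPM), and of 6 T cell markers the 2 that could be tested were lower (summed level of the 6 genes 3.31 to 3.58 CPM against 1.53 to 1.69 CPM). Itgam, a marker of mature myeloid cells, was at 29.6, 31.7 and 29.6 CPM in Tespa1+/+ and at 10.3, 24.2 and 27.5 CPM in Tespa1-/- libraries. It lay lower without overlap but did not pass (log2 fold change -0.57, edgeR adjusted p 0.152). The part of these cells in the changes of proteasome genes was not tested, and in bulk RNA a change in the cell mixture and a change per cell cannot be told apart.

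The upstream sequences of 5 proteasome genes were taken from RefSeq for build GRCm38.p6, over the 250 bases before the annotated start, and are written 5′ to 3′ on the strand of the gene. Psmb5 and Psmb6 were chosen because they encode proteolytic subunits, Psma2 because it rose most in the alpha ring, and Psmd4 and Psmd11 because, as counted, they had the largest rise among the base subunits without ATPase activity and the smallest rise of the lid. Capitals mark matches to 4 sequences that were searched on both strands: the core of the antioxidant response element that NRF1 and NRF2 bind (TGACNNNGC), the CCAAT box (CCAAT), the E-box bound by MYC (CACGTG) and a sequence bound by ETS factors (CCGGAAG).
Psmb5 (chr14:54617996-54618245, minus strand): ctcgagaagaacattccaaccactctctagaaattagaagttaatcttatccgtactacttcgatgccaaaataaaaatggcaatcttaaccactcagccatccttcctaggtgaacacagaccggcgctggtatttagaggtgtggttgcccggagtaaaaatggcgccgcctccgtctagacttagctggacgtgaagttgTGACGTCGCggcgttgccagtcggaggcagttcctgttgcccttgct
Psmb6 (chr11:70525107-70525356, plus strand): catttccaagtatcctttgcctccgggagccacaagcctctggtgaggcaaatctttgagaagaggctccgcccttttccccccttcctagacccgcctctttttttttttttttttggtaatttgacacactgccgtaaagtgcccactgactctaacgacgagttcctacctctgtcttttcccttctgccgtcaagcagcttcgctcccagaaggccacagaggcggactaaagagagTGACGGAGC
Psma2 (chr13:14612992-14613241, plus strand): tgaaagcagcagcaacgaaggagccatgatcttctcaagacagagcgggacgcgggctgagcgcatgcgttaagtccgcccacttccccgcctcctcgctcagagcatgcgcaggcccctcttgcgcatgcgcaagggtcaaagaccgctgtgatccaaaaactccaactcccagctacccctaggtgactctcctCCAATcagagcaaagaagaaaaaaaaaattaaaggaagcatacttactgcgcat
Psmd4 (chr3:95042615-95042864, minus strand): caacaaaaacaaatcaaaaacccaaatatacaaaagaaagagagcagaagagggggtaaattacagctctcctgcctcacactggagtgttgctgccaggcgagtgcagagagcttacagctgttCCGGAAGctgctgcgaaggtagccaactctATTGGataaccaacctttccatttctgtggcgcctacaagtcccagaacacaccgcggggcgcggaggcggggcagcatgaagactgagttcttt
Psmd11 (chr11:80428365-80428614, plus strand): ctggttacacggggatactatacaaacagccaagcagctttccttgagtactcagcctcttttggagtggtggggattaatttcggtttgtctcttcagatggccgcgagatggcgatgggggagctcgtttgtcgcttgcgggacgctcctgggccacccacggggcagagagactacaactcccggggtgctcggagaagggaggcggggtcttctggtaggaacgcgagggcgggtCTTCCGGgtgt
The ARE core lies 47 bases before the start of Psmb5 and 9 bases before that of Psmb6. Psmd11 holds the ETS sequence 11 bases before its start, and Psmd4 holds it at 125 bases, with a CCAAT box at 95 bases. Of the 47 genes, 39 had an entry, and the search covered windows of 250 bases before and 50 after the start. The ETS letters were found in 15 of these 39 genes (38.5%), against 9.93% of all 27025 genes with an entry. Those 27025 include genes without enough counts to be tested here, and the share among tested genes alone was not examined. The shares of the other sequences were close to those of all genes, at 15.4% against 14.0% for the ARE core (6 genes), 35.9% against 41.1% for the CCAAT box (14 genes) and 7.69% against 8.09% for the E-box (3 genes). No test was run on these shares. The median log2 fold change was 0.53 over the 15 genes with the ETS letters and 0.66 over the 23 tested genes without them. It was 0.54 over the 6 genes with the ARE core, 0.71 over the 13 tested genes with a CCAAT box and 0.54 over the 3 with an E-box. A match of letters is a description of the window and not of a bound site.

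Almost the whole set of proteasome genes was higher in Tespa1-/- LSKs. Of 46 genes tested, 43 passed the test as higher (edgeR quasi-likelihood, Benjamini-Hochberg adjusted p under 0.05 over all 15332 genes), where 31.5% of all genes did so. The exceptions were Psma8 and Psme4, which passed as lower (31.8% of all genes), and Psme2b, which did not pass. With a fold over 1.5 in addition, 27 were called higher (14.0% of all genes) and 1, Psma8, was called lower (19.2% of all genes). The rise was modest for each gene: the median log2 fold change was 0.63, with a range from -0.93 to 0.93, beside a median of -0.0003 over all genes. In 42 genes every Tespa1-/- library lay above every Tespa1+/+ library (34.5% of all genes), in 2 every one lay below (34.6% of all genes), and in Psmd5 and Psme2b the groups overlapped. The summed level of the 47 genes rose from 5034 ± 70.7 CPM to 7577 ± 88.4 CPM (mean ± SD of 3 libraries), a ratio of 1.51. Many genes sat near the fold of 1.5, and the count of 27 was 16 with total counts in place of TMM factors and 14 by limma on log2(FPKM + 1), which changes the values and the test together.

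**Figure D1:**
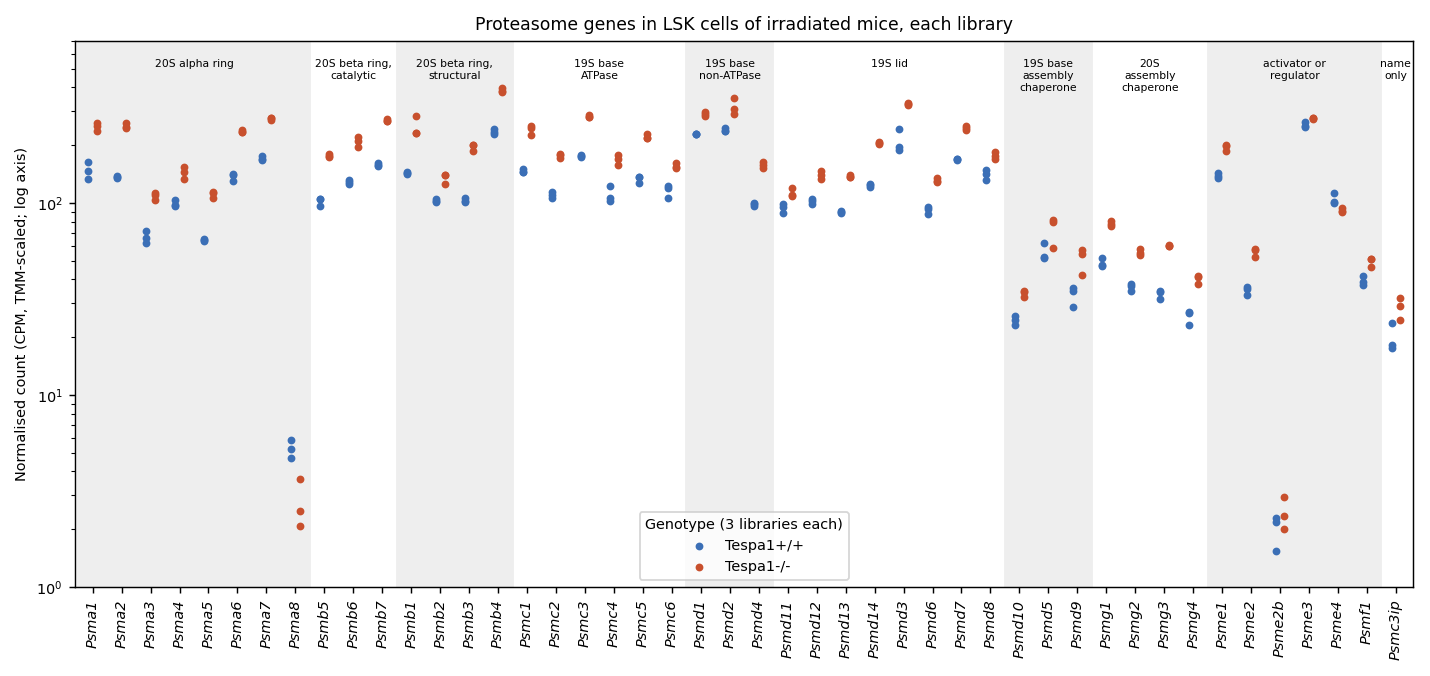
Normalised count of 46 proteasome genes in each of the 6 libraries (CPM on a log axis), with genes on the x axis ordered by role (shaded blocks) and 1 point per library. Tespa1-/- points lie above the Tespa1+/+ points in 42 genes and below them in Psma8 and Psme4. Psmb11, at 0 in every library, is not drawn.

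In these libraries fold change fell with gene length, and this bears on every value given here. Over all genes tested, the rank correlation (Spearman's rho) of union exon length with the change was -0.47, a description across genes, and genes are not replicates. In all genes the median change was 0.54 on the log2 scale in the shortest length decile and -0.56 in the longest. Proteasome genes are shorter than most, with a median union exon length of 2724 bases against 3666 bases over all genes tested. Within their own length deciles, 43 of the 46 genes nevertheless lay above the median of the decile and 33 lay above its upper quartile. A fit that removes the length trend of each library (rho -0.01 afterwards) gave 40 genes as higher (33.7% of all genes) and 1 as lower (24.0% of all genes). It called 17 higher (9.89% of all genes) and 1 lower (14.2% of all genes). The median of the proteasome genes was 0.49 in this fit, beside 0.07 over all genes. Genes that no longer passed as higher were Psmb2, Psmg4, Psme3 and Psmc3ip, and Psme4 changed direction. Length-corrected values, on the union exon length, are therefore given beside the fold changes. On the length implied by the deposited FPKM the median was 0.58, beside 0.07 over all genes. Values of single genes can differ between these 2 lengths.

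**Figure D2:**
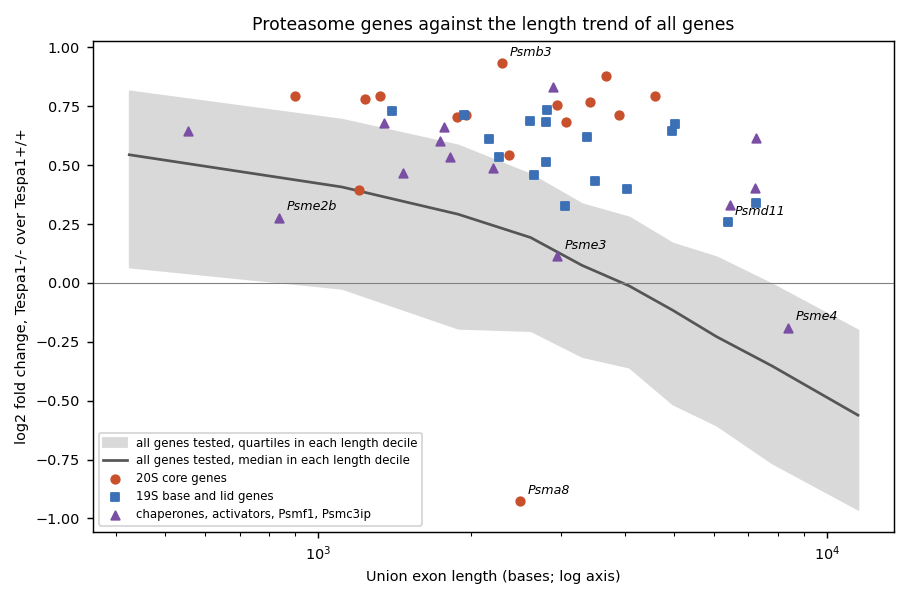
Log2 fold change (Tespa1-/- over Tespa1+/+) of 46 proteasome genes against union exon length in bases (log axis). The line and the band are the median and the quartiles in each length decile of the genes tested that have a union exon length (99.9% of 15332). Of the 46 points, 43 lie above the median of their decile.

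The subunits of the standard 26S particle moved together. Of its genes, 31 match the symbol rule, 14 of the core and 17 of the cap. Sem1 and Adrm1, which also encode cap subunits, do not match it and are described further on. The 31 were all higher and 21 were called, with a median log2 fold change of 0.68 and a range from 0.26 to 0.93. After the length correction 30 were higher and 13 were called, with a median of 0.52, and Psmb2 was the 1 that did not pass. The genes outside the particle were more mixed, since the only falls came from a germ-cell subunit and from an alternative activator.

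The proteolytic subunits rose in all libraries. Psmb5 (ENSMUSG00000022193, GRCm38 chromosome 14, 54614119 to 54618022), which carries the chymotrypsin-like site, was at 96.3, 105 and 105 CPM in Tespa1+/+ and at 177, 179.6 and 175 CPM in Tespa1-/- libraries. The lowest Tespa1-/- library thus stood well above the highest Tespa1+/+ library. The log2 fold change was 0.79 (SE 0.04, edgeR adjusted p 6.8e-06), and 0.42 (SE 0.05, 3.1e-04) after the length correction, which takes Psmb5 below the fold of 1.5. Psmb6 (chromosome 11, 70525367 to 70527858), which carries the caspase-like site, was at 126, 129 and 131 CPM and at 197, 222 and 211 CPM. This is a log2 fold change of 0.71 (SE 0.05, edgeR quasi-likelihood adjusted p 1.9e-05), or 0.50 length-corrected. Psmb7 (chromosome 2, 38588036 to 38644087), which carries the trypsin-like site, was at 162, 156 and 158 CPM and at 268, 266 and 274 CPM. Its rise of 0.77 on the log2 scale (SE 0.03, edgeR adjusted p 2.1e-06) was nearly the same after the length correction, at 0.76. Psmb11, the thymus-specific counterpart of Psmb5, had 0 counts in every library, which allows up to 0.0981 to 0.233 CPM depending on the depth of the library and covers counting error only.

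The structural beta subunits held, as counted, both the largest rise among the 46 genes and one of the smaller ones. Psmb3 (chromosome 11, 97703399 to 97713500) was at 101, 102 and 106 CPM in Tespa1+/+ and 188, 200.2 and 201 CPM in Tespa1-/- libraries. The log2 fold change was 0.93 (SE 0.04, edgeR adjusted p 2.8e-06), or 0.79 length-corrected. Psmb2 (chromosome 4, 126677630 to 126709714) was at 101, 102 and 105 CPM against 126, 139 and 139 CPM. These 2 genes started from nearly the same level in Tespa1+/+ libraries and differed in Tespa1-/- libraries. For Psmb2 the log2 fold change was 0.39 (SE 0.05, edgeR adjusted p 3.2e-04), and 0.09 (edgeR adjusted p 0.183) after the length correction. Psmb1 and Psmb4 rose by 0.79 and 0.71 on the log2 scale (0.93 and 0.52 length-corrected).

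The alpha ring rose as well, except for its germ-cell member. Of its 8 genes, 7 were higher and 6 of these were called, with log2 fold changes from 0.54 for Psma4 (0.41 length-corrected) to 0.88 for Psma2. After the length correction 4 of the 7 were called. Psma2 (chromosome 13, 14613240 to 14674236) was at 135, 137 and 138 CPM in Tespa1+/+ and at 260.0, 245 and 249.6 CPM in Tespa1-/- libraries. Its rise of 0.88 on the log2 scale (SE 0.03, edgeR adjusted p 1.8e-06) stood at 0.91 after the length correction. Psma8 (chromosome 18, 14706151 to 14762301), which replaces Psma7 in the proteasome of spermatocytes, went the other way at a much lower level. Its levels were 5.84, 5.23 and 4.72 CPM in Tespa1+/+ and 3.64, 2.07 and 2.50 CPM in Tespa1-/- libraries, from 30 to 165 counts per library. The groups did not overlap, and the log2 fold change was -0.93 (SE 0.21, edgeR adjusted p 0.00643), or -1.05 length-corrected. By limma on log2(FPKM + 1) it was lower but not past a fold of 1.5.

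**Figure D3:**
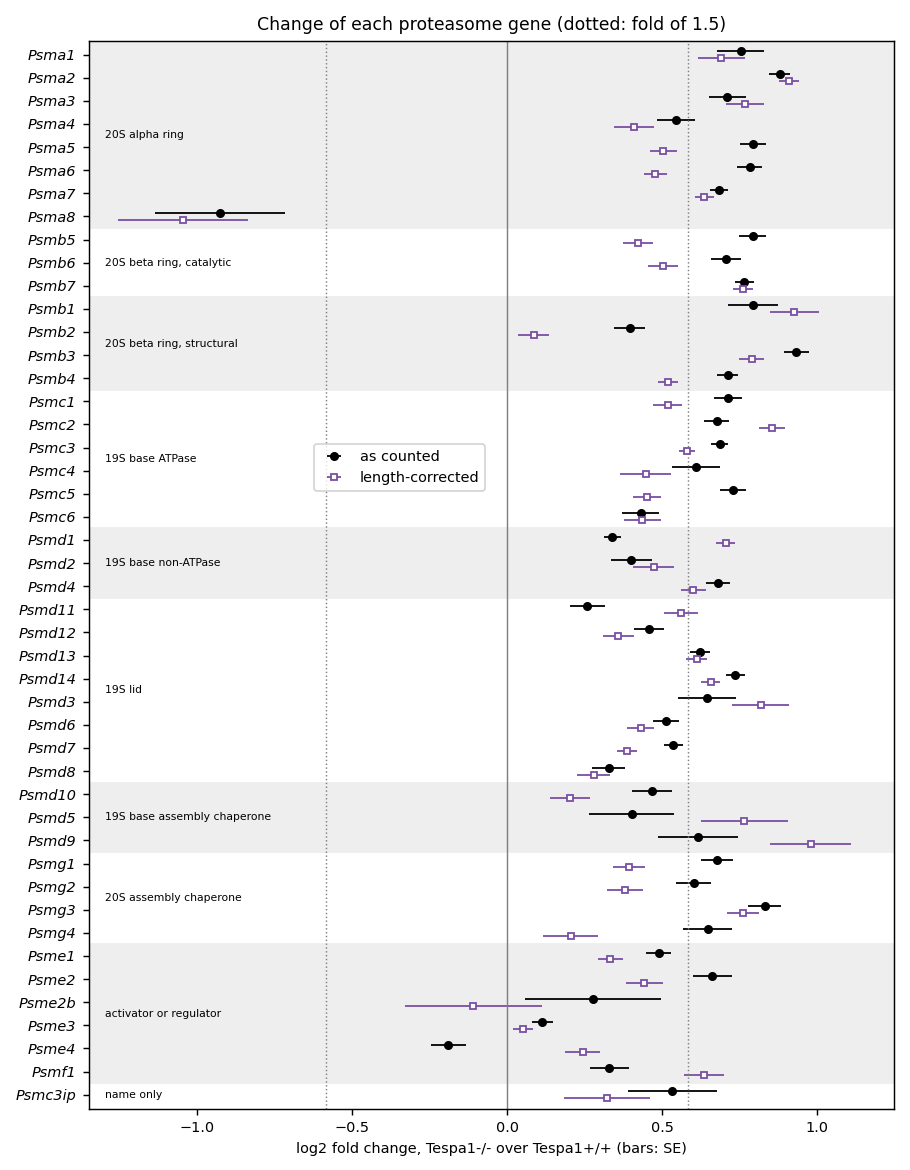
Log2 fold change (Tespa1-/- over Tespa1+/+, bars are the SE, n = 3 libraries per genotype) of 46 proteasome genes by role, as counted (filled circles) and after the length correction (open squares). Dotted lines mark a fold of 1.5. All genes lie right of 0 as counted except Psma8 and Psme4, and Psme4 and Psme2b move across 0 with the correction.

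In the base of the 19S cap, all 6 ATPases were higher and 5 of them were called, with a median log2 fold change of 0.68. With length taken into account all 6 passed, the median was 0.48 and Psmc2 was the 1 still called, at 0.86. Psmc5 (chromosome 11, 106256154 to 106263120) had the largest rise, from 137, 137 and 127 CPM to 218, 217 and 229 CPM. Its log2 fold change was 0.73 (SE 0.04, edgeR adjusted p 8.3e-06), or 0.45 length-corrected. Psmc6 (chromosome 14, 45329788 to 45349705) rose least, from 122, 106 and 119 CPM to 161, 154 and 152 CPM. The log2 fold change was 0.43 (SE 0.06, edgeR adjusted p 6.0e-04) and 0.44 length-corrected, so that Psmc5 and Psmc6 differed little once length was taken into account.

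The 3 base subunits of the set without ATPase activity were higher, and 1 was called (2 after the length correction). Psmd4 (chromosome 3, 95032694 to 95042614), which binds ubiquitin chains, was at 100.2, 96.3 and 98.9 CPM in Tespa1+/+ and at 157, 164 and 153 CPM in Tespa1-/- libraries. On the log2 scale this is a rise of 0.68 (SE 0.04, edgeR adjusted p 8.3e-06), or 0.60 length-corrected. Across the alternatives run, it ranged from 0.55 to 0.81. Psmd1 (chromosome 1, 86064387 to 86139151), a scaffold of the base, had a narrow spread in Tespa1+/+ libraries, at 229.5, 229 and 230.0 CPM in Tespa1+/+ and 286, 297 and 289 CPM in Tespa1-/- libraries. Its log2 fold change rose from 0.34 (SE 0.03, edgeR adjusted p 4.1e-05) to 0.70 with the length correction, which reverses the order of the pair. Psmd2, the other scaffold, was at 0.40, or 0.47 length-corrected.

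All 8 lid genes of the set were higher and 3 were called, namely Psmd3, Psmd13 and Psmd14. Psmd14 (chromosome 2, 61711694 to 61800376) encodes the deubiquitinase that cuts the chain from the substrate. It was at 126, 122 and 124 CPM in Tespa1+/+ and at 209, 205 and 204 CPM in Tespa1-/- libraries, a rise of 0.74 on the log2 scale (SE 0.03, edgeR adjusted p 2.4e-06), or 0.66 length-corrected. Psmd11 (chromosome 11, 80428615 to 80473248), a lid scaffold, rose least as counted, from 98.8, 88.2 and 95.4 CPM to 119, 110.1 and 109 CPM. The log2 fold change was 0.26 (SE 0.06, edgeR adjusted p 0.0058), and 0.56 length-corrected, and by limma on log2(FPKM + 1) it was 0.14 and did not pass. After the length correction Psmd11 lay above the median of the lid (0.50), and Psmd8 was the lowest, at 0.28 (0.33 as counted). The summed level of the core subunits rose more than that of the cap. The 14 core genes rose from 1796 ± 29.9 to 2998 ± 51.5 CPM (SD, n = 3 each; ratio 1.67), and the 17 cap genes from 2381 ± 40.9 to 3487 ± 29.3 CPM (SD, n = 3 each; ratio 1.46). Core CPM divided by cap CPM was 0.740, 0.769 and 0.755 in the Tespa1+/+ libraries but 0.851, 0.861 and 0.867 with Tespa1 deleted, with no overlap. No test was run on these sums. They are not length-corrected, and the cap genes are longer (median union exon length 2820 bases against 2335 bases). The medians after the length correction were 0.58 for the core and 0.52 for the cap on the log2 scale.

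Assembly chaperones rose with the subunits. The 4 chaperones of the 20S core were all called higher, with log2 fold changes between 0.60 and 0.83. After the length correction 3 of the 4 passed and 1, Psmg3, was still called, and the median went from 0.66 to 0.39. Psmg1 went from 0.68 to 0.39. Psmg3 (chromosome 5, 139823592 to 139826885), which works in a pair with Psmg4 on the alpha ring, was at 31.8, 34.6 and 34.6 CPM in Tespa1+/+ and 59.5, 59.6 and 60.6 CPM in Tespa1-/- libraries. The rise was 0.83 on the log2 scale (SE 0.05, edgeR adjusted p 1.2e-05), or 0.76 length-corrected. Psmg2 (chromosome 18, 67641599 to 67654162), which pairs with Psmg1, was at 37.8, 34.8 and 36.8 CPM against 53.4, 54.8 and 57.8 CPM. The rise was 0.60 on the log2 scale (SE 0.06, edgeR adjusted p 8.0e-05), or 0.38 length-corrected. Psmg4, the shortest of these genes at 555 bases, was at 0.65 and no longer passed after the correction (0.20, edgeR adjusted p 0.0847).

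The 3 chaperones that bind the ATPases of the base were higher, and 1 was called (2 after the length correction). Psmd9 (chromosome 5, 123169413 to 123250131) was at 35.0, 36.1 and 28.7 CPM in Tespa1+/+ and at 56.7, 54.1 and 42.3 CPM in Tespa1-/- libraries. The rise was 0.62 on the log2 scale (SE 0.13, edgeR adjusted p 0.00471), or 0.98 length-corrected, the largest rise on that scale. Psmd5 (chromosome 2, 34849734 to 34874968) was at 52.1, 61.7 and 51.6 CPM against 58.1, 79.8 and 81.5 CPM, and Tespa1-/- replicate 1 fell within the Tespa1+/+ range. The log2 fold change was 0.40 (SE 0.14, edgeR adjusted p 0.0363), or 0.77 length-corrected, and as counted it lost significance without Tespa1+/+ replicate 1 (adjusted p 0.105) or 3 (0.0988) and without Tespa1-/- replicate 2 (0.102) or 3 (0.103). Psmd10, which encodes gankyrin, was at 0.47, or 0.20 length-corrected.

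Activators and regulators were the most varied. Psme1 and Psme2 encode the PA28 alpha and beta cap, which is known for its part in antigen processing. Psme2 (chromosome 14, 55587441 to 55591113) was at 33.1, 35.5 and 36.6 CPM in Tespa1+/+ and at 52.2, 57.7 and 56.8 CPM in Tespa1-/- libraries, a rise of 0.66 on the log2 scale (SE 0.06, edgeR adjusted p 8.5e-05), or 0.44 length-corrected. Psme1 rose by 0.49 on the log2 scale, or 0.33 length-corrected. Across the alternatives run, its log2 fold change ran from 0.33 to 0.60. Psme2b (chromosome 11, 48945354 to 48946190), a copy of Psme2, was at 1.54, 2.19 and 2.29 CPM against 2.94, 2.0 and 2.34 CPM. Its groups overlapped, the log2 fold change was 0.28 (SE 0.22, edgeR adjusted p 0.306), and it was -0.11 length-corrected. Psme3, the nuclear activator PA28 gamma, was at 255 ± 9.21 CPM against 276 ± 1.55 CPM (SD, n = 3 each). Its rise of 0.11 on the log2 scale (SE 0.03, edgeR adjusted p 0.02) did not pass after the length correction (0.05, adjusted p 0.232), nor with total counts (0.01) or DESeq2 (adjusted p 0.0688).

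Psme4 (chromosome 11, 30771726 to 30880361) encodes PA200, a large activator that works without ubiquitin. It was at 113, 99.5 and 101 CPM in Tespa1+/+ and at 90.7, 89.8 and 94.4 CPM in Tespa1-/- libraries, and the log2 fold change was -0.19 (SE 0.06, edgeR adjusted p 0.0214). At 8382 bases it is the longest of the 47 genes, and after the length correction the log2 fold change was 0.24 (SE 0.06, edgeR adjusted p 0.00772). On the length implied by the deposited FPKM it was 0.05 and did not pass (edgeR adjusted p 0.43). The direction of Psme4 therefore rested on whether length was taken into account, and its passing as higher on which length was used. Psme4 also lost significance as counted without Tespa1-/- replicate 1 (adjusted p 0.0682) or 2 (0.0714). Psmf1, the gene of the inhibitor PI31, rose by 0.33 (SE 0.06, edgeR adjusted p 0.00308), or 0.64 length-corrected. Psmc3ip, which shares only the name and acts in meiotic recombination, was at 17.5, 18.2 and 23.7 CPM against 29.1, 32.0 and 24.6 CPM. It rose by 0.53 on the log2 scale (SE 0.14, edgeR adjusted p 0.0136) and did not pass after the correction (0.32, adjusted p 0.0835).

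Levels per gene length, as the deposited FPKM, varied widely within the core and within the cap. The subunits of each part occur in equal numbers in that part of the assembled complex. Among the 31 subunits of the 26S particle in the set, FPKM in Tespa1+/+ LSKs ran from 9.42 for Psmd11 to 91.5 for Psmb4. The median FPKM was 42.2 over the 14 core genes and 28.0 over the 17 cap genes in Tespa1+/+, and 67.6 and 40.8 in Tespa1-/- LSKs. Chaperones were lower, with a median FPKM of 14.98 in Tespa1+/+ and 19.3 in Tespa1-/- LSKs. The top of the order was the same in both genotypes, with Psmb4 first (91.5 and 139.7 FPKM), Psmc5 next (86.0 and 133 FPKM) and Psma6 after it (74.3 and 119 FPKM). These levels use 1 length per gene, the one implied by the deposited FPKM. It is not the union exon length of the length correction, and the order on union exon lengths was not examined.

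The immunoproteasome, which swaps the proteolytic subunits for Psmb9, Psmb10 and Psmb8, rose less uniformly, with 2 of 3 genes higher. Psmb10 was at 97.5 ± 2.63 CPM against 149 ± 5.08 CPM and Psmb8 at 234 ± 14.6 CPM against 329 ± 25.1 CPM (SD, n = 3 each), with log2 fold changes of 0.61 and 0.49 (0.38 and 0.48 length-corrected). Psmb9 was at 109 ± 13.8 CPM against 124 ± 18.2 CPM (SD, n = 3 each), and its groups overlapped (log2 fold change 0.19, edgeR adjusted p 0.221; 0.21 length-corrected). The ratio of each constitutive subunit to its counterpart was then compared. For Psmb6 over Psmb9 the log2 ratio was 0.30, 0.36 and 0.07 in the Tespa1+/+ libraries, against 0.44, 0.92 and 0.93 in the Tespa1-/- libraries. For Psmb7 over Psmb10 it was 0.74, 0.63 and 0.73 against 0.82, 0.81 and 0.94, and for Psmb5 over Psmb8 it was -1.18, -1.23 and -1.19 against -0.83, -0.99 and -0.85. As counted, every Tespa1-/- ratio lay above every Tespa1+/+ ratio in each pair, by 0.52, 0.15 and 0.31 on average. The exact permutation test of each pair (two-sided) gave p = 0.1, the smallest that 3 against 3 libraries allow, and adjustment over the 3 pairs leaves it at 0.1. The members of a pair differ in length, and with the length correction the order of the pairs changed. The difference was then 0.29 for Psmb6 over Psmb9, with overlapping groups, 0.38 for Psmb7 over Psmb10, with groups still apart, and -0.05 for Psmb5 over Psmb8, with overlapping groups. The exact permutation p values (two-sided) were 0.3, 0.1 and 0.4, or 0.4, 0.3 and 0.4 adjusted over the 3 pairs. A higher ratio thus remained without overlap only for Psmb7 over Psmb10.

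**Figure D4:**
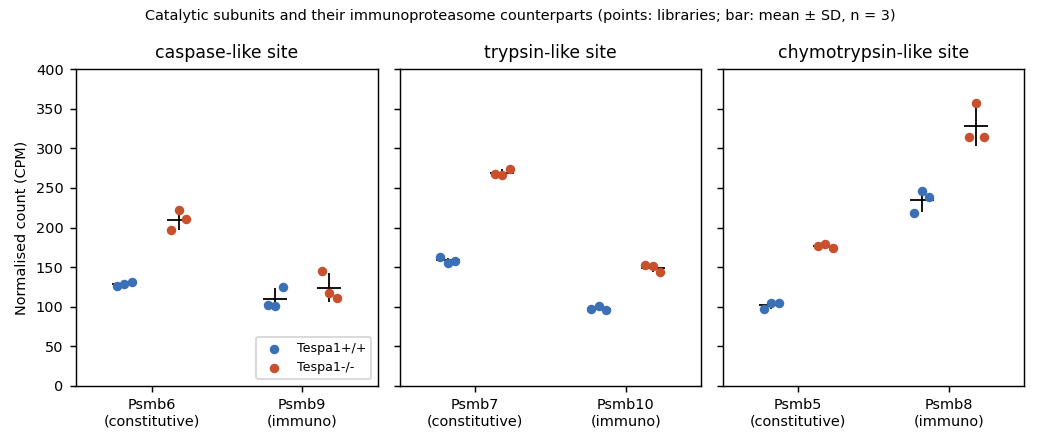
Normalised count (CPM) of each proteolytic subunit of the constitutive proteasome and its immunoproteasome counterpart, by genotype. Points are libraries, and bars are the mean ± SD (n = 3). Groups are apart in every gene except Psmb9.

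Genes that work with the proteasome moved in both directions as counted. Of 28 genes listed, which serve as further subunits, chaperones, shuttles, ubiquitin sources and regulators, 27 were tested; 12 were higher (31.5% of all genes), 9 were lower (31.8% of all genes) and 6 did not pass, with 4 called higher (14.0% of all genes), and the median log2 fold change was 0.08. As counted, the shares of lower genes and of genes called higher were thus near those of all genes. Partners of the particle were found on both sides. Sem1, a small lid subunit, was at 0.94 (0.95 length-corrected), Uchl5, a deubiquitinase of the cap, at 0.83 (0.77) and Adrm1, the receptor that anchors it, at 0.54 (0.65). Pomp, the chaperone of the beta ring, was at 0.44 (0.64), and Usp14, a deubiquitinase that binds the base reversibly, at 0.24 (0.67). Lower as counted were Ecpas, an adaptor of the proteasome, at -0.39 (0.19 length-corrected), Ube3c, a ubiquitin ligase that binds it, at -0.32 (0.17), Zfand5, an activator, at -0.33 (0.22), and Ubqln2, a shuttle for ubiquitin-tagged proteins, at -0.48 (-0.50). Of these 4, Ubqln2 alone was still lower after the length correction, and the other 3 passed as higher. The regulators of transcription also moved in both directions. Nfe2l1 was at 47.4, 54.2 and 55.2 CPM in Tespa1+/+ and at 46.4, 38.5 and 30.8 CPM in Tespa1-/- libraries. It fell by 0.43 on the log2 scale (SE 0.14, edgeR adjusted p 0.0306) and did not pass after the length correction (-0.21, adjusted p 0.241). Nfe2l2, which encodes NRF2, was at 0.21 (edgeR adjusted p 0.00308; 0.26 length-corrected). Of the 2 enzymes that process NRF1, Ddi2 was at -0.19 (edgeR adjusted p 0.00294; 0.30 length-corrected) and Ngly1 at -0.01 (edgeR adjusted p 0.95; 0.37 length-corrected, adjusted p 0.0241). With the length correction, 19 of the 27 were higher (33.7% of all genes), 3 were lower (24.0% of all genes) and 5 did not pass. In that fit 8 were called higher (9.89% of all genes) and 0 were called lower (14.2% of all genes). The median was then 0.26, beside 0.07 over all genes.

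The 2 complexes that share the architecture of the lid differed from each other in their counts. All 14 tested genes of eIF3, the translation initiation complex, were higher and 5 were called, with a median log2 fold change of 0.49 (0.47 length-corrected) and a range from 0.28 to 0.68. Of 10 genes of the COP9 signalosome, which removes NEDD8 from cullin ligases, 5 were higher, 5 did not pass and 3 were called, with a median of 0.26 (0.30 length-corrected). Of all genes tested, 31.5% were higher and 14.0% were called higher as counted. Beside the 2 complexes, the 8 proteasome lid genes of the set had a median of 0.52 (0.50 length-corrected). The differences between these lists were not tested.

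Some counts may be shared with other genes. Pseudogenes with sequence in common with Psma3 held 57.9% of the summed CPM of gene and copies in Tespa1+/+ and 60.4% in Tespa1-/- LSKs, and those of Psma5 held 55.0% and 54.2%, so the levels of these 2 genes are uncertain. Summed with its copies, Psma3 had a log2 ratio of group means of 0.80 (0.71 alone) and Psma5 of 0.77 (0.79 alone). For Psmb3 the copies held 15.6% and 16.1%, and the ratio was 0.94 (0.93 alone). For Psma4 the copy held 12.6% and 12.5%, and the ratio was 0.54 (0.54 alone). Psmb5 shares 54.1% of its 50-base stretches with other genes, Gm3375 and Mir686 first among them. Its copy Gm3375 held 4.26% and 4.09%, and the ratio was 0.79 (0.79 alone). Psme2b summed with Psme2, from which it differs little, gave 0.64. Psme2 held 94.6% of that sum in Tespa1+/+ and 95.8% in Tespa1-/- LSKs, so this value mostly repeats that of Psme2 (0.66). Exons of other genes on the opposite strand cover 25.5% of the exons of Psmd9, 21.2% of those of Psmc3ip, 11.8% of those of Psmb7 and 10.1% of those of Psmd13. On the same strand, Mir686 lies in 12.1% of the exons of Psmb5 and Gm26938 in 9.68% of those of Psmg3. Libraries were stranded by the labels, but whether counting used the strand was not given in the sources used here, and these genes could hold reads of their neighbours.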

How the data were processed

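Poly-A RNA of LSKs from irradiated Tespa1+/+ and Tespa1-/- mice was sequenced as stranded paired-end libraries, 3 per genotype. Groups and replicate numbers came from the labels. The authors deposited 1 table of 55487 genes with a raw count and an FPKM value per library; the deposited FPKM is the count scaled by gene length and library total. The processing notes of the submitters name CASAVA 1.8, HISAT2, StringTie, edgeR and GRCm38 without roles; the counting tool and its strand setting were not given in the sources used here. All 47 loci matched GENCODE M21, which supplied union exon lengths.

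After filterByExpr and TMM scaling, the 15332 genes kept were tested with edgeR 4.0.16 in R 4.3.3 (quasi-likelihood F-test, no covariates, Benjamini-Hochberg adjustment). A gene passed at an adjusted p under 0.05 and was called with a fold over 1.5 in addition. SE was obtained from the log2 fold change and its F statistic. In the length correction, each library's log2 CPM (prior count 2), less the mean over the 6 libraries, was smoothed against log2 length by loess (span 0.5), over genes with a mean log2 CPM above 0, and the smooth served as an offset. Single ratios were compared by an exact permutation test. The scripts were tested on simulated data.

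Alternatives were RLE factors, total counts, no filter, at least 10 counts in every library, DESeq2 1.42.0, glmTreat, an adjusted p under 0.01, an unadjusted p under 0.05, limma 3.58.1 on log2(FPKM + 1) with and without a filter of 1 FPKM in 3 libraries, or with a pseudocount of 0.1, 3 length corrections, the replicate number as a block, and leaving out each replicate. The length-corrected fits without each replicate, the length-corrected ratios (each gene's offset subtracted from its log2 CPM) and the sums with copies were chosen after seeing the data. Copies are genes annotated as pseudogenes, or named Psm, that share at least 50 words of 50 bases; they were limited to these after a first run had joined Psmd11 with Chka, an unrelated gene, with a log2 ratio near 0 for the sum.

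The proteasome genes and all lists were chosen with earlier results of these data known. Values in every library are given for Psmb5, Psmb6, Psmb7, for the largest rise and the smallest rise or largest fall in each role, and for genes that did not pass; other genes outside the rule were named after their values were seen. Of 28 further pathway genes, Paaf1 was not found in the table. Depth limits only the low genes, Psma8, Psme2b and Psmb11; intervals cover counting error only.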

Additional observations from a re-analysis of the deposited data

How the results depend on the processing

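Under the 21 alternatives that gave values for single genes, 18 of the 46 proteasome genes changed neither direction nor side of the threshold, and no gene past the threshold changed direction outside the length corrections. The count of 43 higher genes fell to 18 with glmTreat, whose null is a fold of 1.5, and the lower genes then numbered 0 passing and 0 called. At an adjusted p under 0.01, 1 gene was lower. Genes called higher numbered 16 with total counts, 14 by limma on log2(FPKM + 1) with or without its filter, and 15 with a pseudocount of 0.1, against 27; called lower were 0 by limma on log2(FPKM + 1). The median of 0.63 was 0.53 with total counts, which shift the median of all genes by -0.10, 0.51 by limma on log2(FPKM + 1) and 0.53 with a pseudocount of 0.1. On the length implied by FPKM it was 0.58 with 1 gene lower. With the length correction it was 0.49 with 17 called higher and 1 lower, with length and GC content 0.49 with 15 and 1, and with length and the replicate block 0.49 with 17 and 1. Psme4 was at 0.0545 on the implied length, 0.24 with length, 0.24 with length and GC content and 0.24 with length and the block; Psme2b was at -0.0687, -0.11, -0.12 and -0.11. The difference in log2 ratio of Psmb5 over Psmb8 was -0.0516 with the length correction. Leaving out each replicate gave from 1 to 2 lower genes. Where the construction of the alternative does not show it, the cause was not tested.

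The replicate numbers did not pair the libraries (correlations of deviations 0.0459, 0.0107 and 0.0595), and a replicate block left 43 genes higher and 2 lower, with no call changed. Depth limits Psma8 and Psme2b, at 28 to 165 counts per library.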
